A study of Bos taurus with 30 samples.

Results

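The miR-130, miR-301 and miR-454 family was followed in small RNA sequencing of calf testes as the rows named bta-miR-130a, bta-miR-130b, bta-miR-301a, bta-miR-301b and bta-miR-454, which are 5 of the 1030 miRNAs in the deposited table. All 30 samples were testes of Holstein-Friesian bull calves, which had been fed at a High (15 calves) or a Moderate (15 calves) plane between 2 and 12 weeks of age; the age at sampling is not in the labels. High calves were offered 1.5 kg of milk replacer (10 L) each day plus concentrate without restriction, for a planned gain of 1.0 kg per day. Moderate calves were offered 0.5 kg of milk replacer (4 L) and 0.5 kg of concentrate each day, for a planned gain of 0.5 kg per day. RNA came from testis tissue and not from sorted cells, so fewer cells of a type and less miRNA per cell cannot be told apart. The diet is the one in the diet characteristic. The sample titles name the other diet for 18 of the 30 libraries, and the labels do not settle which is right.

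miRNAs are short RNAs that pair with messenger RNAs mainly through their seed, the stretch near the 5′ end, and lower their translation and stability. The members of this family share the same seed and are therefore predicted to bind largely the same messenger RNAs, while the rest of each sequence differs. In mammals the family is known for repressing PPARG, the nuclear receptor that drives fat cell formation, and for acting on components of TGF-β signalling. miR-130a has also been studied in endothelial cells, where it represses antiangiogenic homeobox genes. In the RefSeq gene table (assembly ARS-UCD2.0), each of the 5 members had a single gene. The nearest miRNA gene of MIR130B was MIR301B. MIR301A and MIR454 were likewise nearest to each other, and both lie within the span of SKA2, which encodes a protein of the spindle and kinetochore complex. The nearest miRNA gene of MIR130A was not a family member. The family thus came from 3 loci, which the choice of members did not use.

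All 5 members were above 0 in each of the 30 libraries, with 11 to 31526 reads per member and library, and all 5 passed the filter on low values (1 or more in 15 or more libraries), as did 387 of the 1030 miRNAs in all. Library depth was 6.0003 to 19.98 megareads (M reads) in the 15 High libraries and 6.68 to 19.2 M reads in the 15 Moderate libraries. Values are CPM (read counts per fixed number of reads) relative to library sizes adjusted with TMM, edgeR's trimmed mean scaling, and are written below as TMM-scaled CPM. The gonadal miRNA miR-202 averaged 2335 TMM-scaled CPM in High and 2315 in Moderate libraries. Of the striated muscle miRNAs, miR-1 and miR-206 were listed at 0 in all. The others were low but present, with means of 10.3 for miR-133a, 5.61 for miR-499 and 1.33 for miR-133b over the 30 libraries. Moderate replicate 5 stood apart: 84.8% of its reads were miR-10b, a share of 37.0% to 49.0% in the other 29 libraries, and for 168 of the 387 tested miRNAs its level was over 3 SD away from the mean of those 29. Results are therefore given with and without this library.

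The family was led by miR-130a in every library. miR-130a averaged 1296 TMM-scaled CPM over the 30 libraries and ranked 50 of 387 tested miRNAs by mean level. miR-301a averaged 348 TMM-scaled CPM (rank 85), miR-130b 94.5 (rank 123), miR-301b 18.3 (rank 205) and miR-454 14.6 (rank 214). Over the 30 libraries miR-130a made up 73.1% ± 4.26 of the summed family level, miR-301a 19.7% ± 3.59, miR-130b 5.36% ± 0.581, miR-301b 1.03% ± 0.28 and miR-454 0.829% ± 0.187 (SD). The whole family took 0.181% ± 0.0292 of the reads. Ligation and reverse transcription favour some small RNAs over others, so levels of different miRNAs are relative.

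The order of the levels held within libraries for all but the lowest pair. miR-130a was above miR-301a in 30 of 30 libraries, by 2.57-fold to 13.4-fold with a median of 3.55-fold. miR-301a was above miR-130b in 30 of 30, by a median of 3.73-fold, and miR-130b above miR-301b in 30 of 30, by a median of 5.26-fold. miR-301b was above miR-454 in 25 of 30 libraries, with a ratio of 0.821 to 2.29 and a median of 1.22, so these neighbours were not separated beyond their spread. The order of the means was the same with library totals as the scaling and without Moderate replicate 5.

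Genes of the same locus did not have the same level. miR-301a was 19.7 to 34.2 times miR-454 across the 30 libraries, with a median of 24.0, although both lie within SKA2. miR-130b was 3.84 to 15.2 times miR-301b, and 3.84 to 8.20 times without Moderate replicate 5. The ratio of miR-301a to miR-454 had a log2 SD of 0.19 over the 30 libraries, the smallest among the 10 ratios between members. In the 29 libraries other than Moderate replicate 5 it was 0.19 as well, and the ratio of miR-301a to miR-130b, from separate loci, had the smallest, 0.18.

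Between libraries, miR-130a and miR-130b varied little. The coefficient of variation (CV) over the 30 libraries was 11.3% for miR-130a and 10.4% for miR-130b, against a median of 23.5% over the 387 tested miRNAs. For miR-301a the CV was 17.8%, for miR-454 19.3% and for miR-301b 28.3%. Without Moderate replicate 5 these 3 stood at 12.4%, 15.0% and 24.99%, beside a median of 19.4% over the tested miRNAs. The CV that counting alone would give was 0.914% for miR-130a, 1.74% for miR-301a, 3.38% for miR-130b, 7.81% for miR-301b and 8.57% for miR-454 in these 29 libraries.

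High and Moderate calves had overlapping levels of every member. This was not particular to the family, since 0 of 387 tested miRNAs had values that did not overlap between the diets. miR-130a, the most abundant, ranged from 957 to 1449 TMM-scaled CPM in the High libraries with a median of 1263. In the Moderate libraries it ranged from 1121 to 1535 with a median of 1343. The lowest 3 values were all High, and the Moderate median exceeded 12 of 15 High values, but the ranges overlapped over most of their length.

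miR-301a ranged from 266 to 421 TMM-scaled CPM in the High libraries with a median of 364. In the Moderate libraries it ranged from 114 to 428 with a median of 349. The lowest value belongs to Moderate replicate 5, and without it the Moderate libraries lay within 289 to 428. miR-454, from the same SKA2 locus, ranged from 12.5 to 19.5 in High libraries (median 15.1) and from 5.23 to 18.03 in Moderate libraries (median 13.7), again with Moderate replicate 5 lowest.

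miR-130b ranged from 82.9 to 118 TMM-scaled CPM in the High libraries with a median of 96.6. In the Moderate libraries it ranged from 80.9 to 110.4 with a median of 89.8. Its partner miR-301b ranged from 10.7 to 30.3 in High libraries (median 17.6) and from 5.71 to 28.6 in Moderate libraries (median 16.9). For both, the High and the Moderate values covered nearly the same range.

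**Figure D1:**
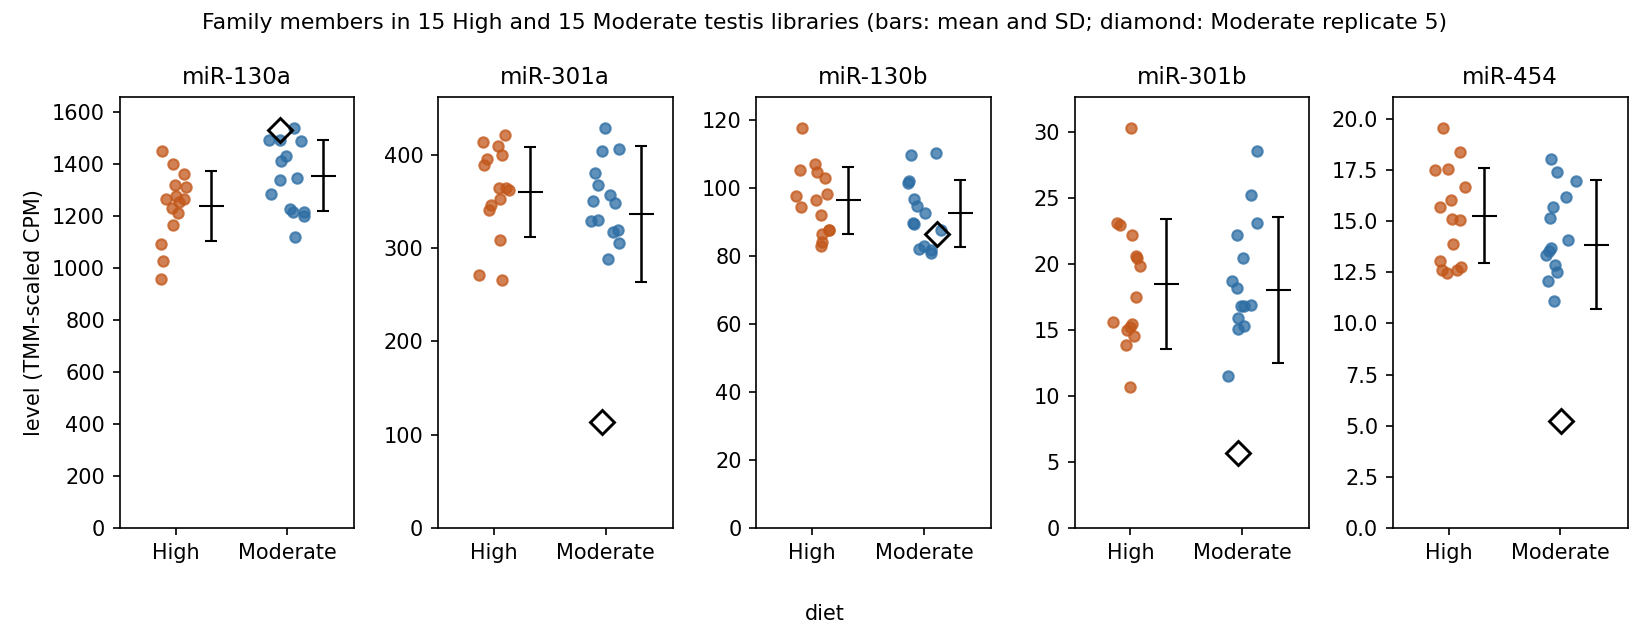
Level of each family member in TMM-scaled CPM (y axis, linear from 0) in 15 High and 15 Moderate libraries; each point is a library, the black bar is mean and SD, and the open diamond is Moderate replicate 5. The 2 diets overlap for every member, as they do for all 387 tested miRNAs. The diamond is the lowest point for miR-301a (114), miR-301b (5.71) and miR-454 (5.23).

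None of the 5 members passed the test of diet, while 19 of 387 tested miRNAs did (4.91%; limma on log2(value + 0.5), Benjamini-Hochberg adjusted p under 0.05, two-sided). Of these 19, 9 were higher and 10 lower in High libraries. Upper-quartile scaling called 21, of which 13 were higher and 8 lower. The split was 10 higher and 26 lower in edgeR and 22 higher and 30 lower in DESeq2. Without Moderate replicate 5 it was 19 higher and 26 lower in limma. No member was called either by edgeR on recovered reads, which called 9.52% of the miRNAs it tested, by DESeq2 (6.21%), without Moderate replicate 5 (11.7%) or in the libraries under 12 M reads (0.779%). miR-130a averaged 1238 ± 134 TMM-scaled CPM in High and 1354 ± 137 in Moderate libraries (SD, n = 15 each). Its log2 fold change, High minus Moderate, was -0.13 with a standard error of 0.06, a 95% confidence interval of -0.25 to -0.01 and an adjusted p of 0.189 in limma. It was the 1 member with an unadjusted p under 0.05, which 21.2% of all tested miRNAs had, and its direction turned to 0.08 (adjusted p = 0.703 in limma) with library totals as the scaling, a scaling that put the median over the tested miRNAs at 0.21. Without Moderate replicate 5 the log2 fold change of miR-130a was -0.12 (adjusted p = 0.162 in limma), and -0.05 with library totals in those 29 libraries.

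The other 4 members had log2 fold changes above 0 with intervals that included 0. miR-301a averaged 360.2 ± 48.3 TMM-scaled CPM in High and 336 ± 73.1 in Moderate libraries, a log2 fold change of 0.14 (95% confidence interval -0.11 to 0.38, adjusted p = 0.546 in limma). Without Moderate replicate 5 the log2 fold change was 0.03 (-0.11 to 0.17). For miR-454 it was 0.17 (-0.07 to 0.40, adjusted p = 0.434 in limma) and 0.07 (-0.09 to 0.24) without that library. In edgeR, leaving out that library moved miR-301a less, to 0.04 against 0.08 in all 30 libraries, and miR-454 to 0.09 against 0.11.

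miR-130b averaged 96.4 ± 9.89 TMM-scaled CPM in High and 92.6 ± 9.78 in Moderate libraries. Its log2 fold change was 0.06 (-0.06 to 0.18, adjusted p = 0.609 in limma), and 0.05 without Moderate replicate 5. miR-301b stood at 0.07 (-0.26 to 0.39, adjusted p = 0.838 in limma) and at -0.04 (-0.30 to 0.22) without that library. These intervals do not show that the diets were alike. On the log2 scale they leave room for changes down to -0.25 for miR-130a and up to 0.18 for miR-130b. They reach 0.38 for miR-301a, 0.39 for miR-301b, the most variable member, and 0.40 for miR-454. The median log2 fold change was 0.07 over the 5 members and 0.03 over all 387 tested miRNAs; 1 of 5 members was below 0, against 43.7% of all tested. With the diets taken from the titles, every member had an adjusted p of 0.981 in limma. The summed family level was 1429.7 to 1982 TMM-scaled CPM in High libraries (median 1717) and 1645.6 to 2068 in Moderate libraries (median 1768), and the family took 0.186% ± 0.0151 of the reads in High and 0.177% ± 0.0387 in Moderate libraries. The Moderate share was 0.186% ± 0.0100 without Moderate replicate 5, which stood at 0.0412%.

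**Figure D2:**
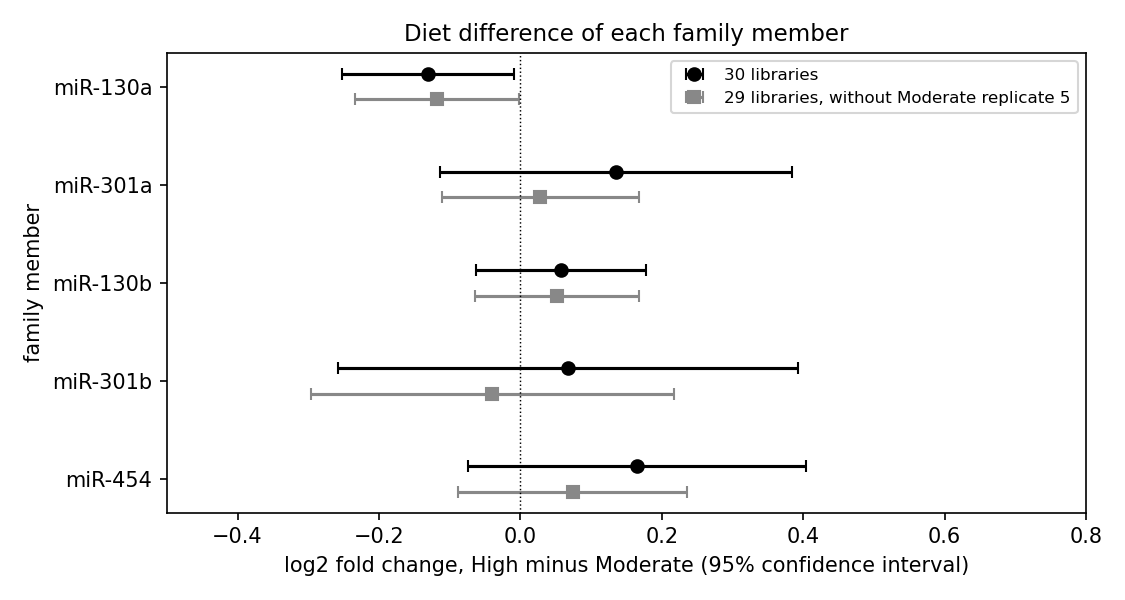
Log2 fold change of each member, High minus Moderate (x axis), with its 95% confidence interval from limma, in all 30 libraries (black circles) and without Moderate replicate 5 (grey squares). Every interval spans 0 except those of miR-130a, which end just below it: -0.13 (-0.25 to -0.01, adjusted p = 0.189) in 30 libraries and -0.12 (adjusted p = 0.162) in 29.

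Ratios between members within a library do not depend on how the library was scaled, and 10 of them were compared between the diets. The ratio of miR-130a to miR-130b was 12.9 ± 1.75 in High and 14.7 ± 1.77 in Moderate libraries (SD, n = 15 each), and the ratio was under the Moderate median in 13 of 15 High libraries. On the log2 scale the difference was -0.19 with a standard error of 0.07 (permutation p = 0.0120, two-sided; 0.120 adjusted over the 10 ratios). Without Moderate replicate 5 it was -0.17 (permutation p = 0.0225; 0.225 adjusted), and with the diets of the titles it was -0.05 (permutation p = 0.490). It was -0.20 among libraries of under 12 M reads (11 High, 13 Moderate), and in the deeper ones -0.10 (4 High, 2 Moderate).

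The other 9 ratios did not pass either, with adjusted permutation p of 0.207 to 0.934. Between members of the same locus, the ratio of miR-301a to miR-454 was 23.8 ± 2.99 in High and 24.5 ± 3.59 in Moderate libraries, a log2 difference of -0.04 with a standard error of 0.07. The ratio of miR-130b to miR-301b was 5.45 ± 1.10 in High and 5.77 ± 2.76 in Moderate libraries, a log2 difference of -0.01 with a standard error of 0.15. This difference turned to 0.09 without Moderate replicate 5, whose ratio was 15.2. Neither pair was shown to shift in balance with diet.

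In Moderate replicate 5 the family split. miR-130a stood at 1528 TMM-scaled CPM in it, 1.19 times the mean of the other 29 libraries, and miR-130b at 86.6, 0.913 times that mean. miR-301a stood at 114, 0.320 times the mean of the others and -5.46 SD from it. miR-454 and miR-301b were at 0.352 and 0.305 times the mean of the others, with 11 and 12 reads. On the TMM scale, the 2 SKA2 miRNAs and miR-301b thus fell outside the range of the other 29 libraries, while miR-130a and miR-130b lay within it. As a share of reads the whole family was low in this library, at 0.0412% against 0.156% to 0.216% in the other 29. It held 3213 reads of miR-130a and 182 of miR-130b at a depth of 8.88 M reads, while the others held at least 6257 and 604. Only the ratios between members do not depend on the scaling.

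The low members were not those of a single locus. miR-130b and miR-301b share a locus, yet the ratio of miR-130b to miR-301b was 15.2 in Moderate replicate 5 and 3.84 to 8.20 in the other 29 libraries. The ratio of miR-301a to miR-454 was 21.8 in it, inside the 19.7 to 34.2 of the others. Over all 387 tested miRNAs the median level in Moderate replicate 5 was 0.742 times the mean of the others, with quartiles of 0.376 and 1.27, so the low 3 members lay below the lower quartile, and miR-130a and miR-130b above the median and below the upper quartile.

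**Figure D3:**
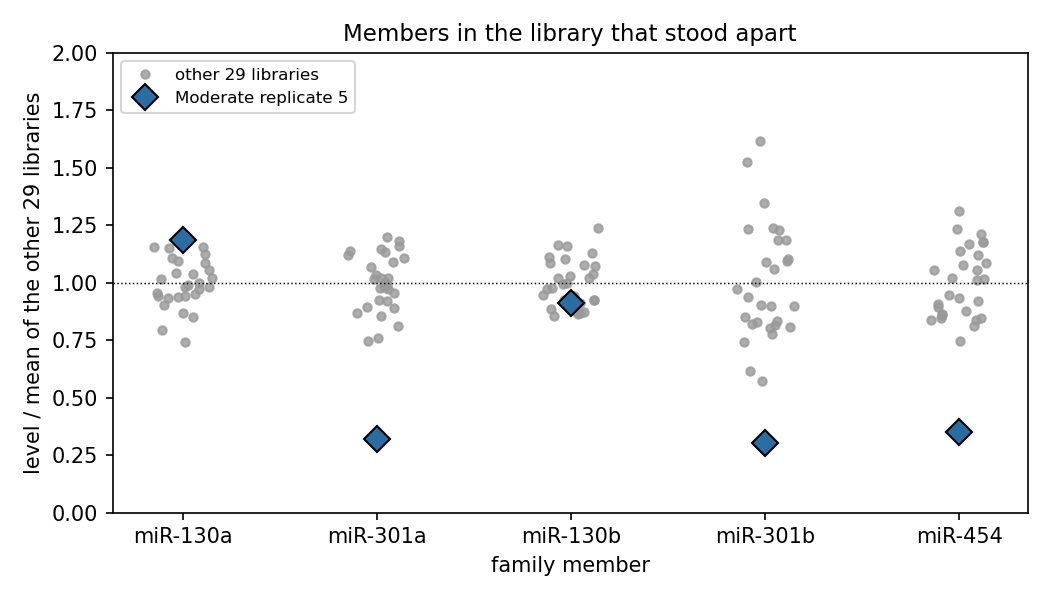
Level of each member in each library divided by its mean over the 29 libraries other than Moderate replicate 5 (y axis, no unit); grey points are those 29 libraries and diamonds are Moderate replicate 5. The diamond is at 1.19 for miR-130a and 0.913 for miR-130b, and at 0.320, 0.305 and 0.352 for miR-301a, miR-301b and miR-454.

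Across libraries, several pairs of members varied together. Over the 10 pairs, 4 had a Pearson r above 0.5 on log2(value + 0.5) in the 30 libraries, and 3 of these 4 also did without Moderate replicate 5. The share of pairs above 0.5 over all tested miRNAs was not computed. For Spearman's rho of a member with the 386 other tested miRNAs, the 90th percentile was 0.28 to 0.37, depending on the member. For miR-130b and miR-301b, from the same locus, r was 0.62 (permutation p = 0.000220; 0.00055 adjusted over 10 pairs) and Spearman's rho 0.64 (permutation p = 0.000250) over 30 libraries. Without Moderate replicate 5, r was 0.69 (permutation p = 7e-05; 0.000700 adjusted). Without the 2 libraries farthest from the median of miR-130b, r was 0.54 in the 30 libraries. Within diets r was 0.79 in High and 0.51 in Moderate libraries, and within depth groups 0.51 under 12 M reads and 0.95 in the 6 deeper libraries.

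For miR-301a and miR-454, both within SKA2, r was 0.85 (permutation p = 4e-05; 0.000200 adjusted) and rho 0.56 (permutation p = 0.00179) over 30 libraries. Moderate replicate 5, low in both, carried part of it: without that library r was 0.56 (permutation p = 0.00158; 0.00527 adjusted), and rho 0.51 (permutation p = 0.00549). Without the 2 libraries farthest from the median of miR-301a, r was 0.56. Within diets r was 0.64 in High and 0.46 in the 14 other Moderate libraries, and it was 0.86 under 12 M reads (0.55 without Moderate replicate 5) and 0.67 in the 6 deeper libraries. The relation held on both measures.

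A positive relation was also found between members of separate loci. For miR-301a and miR-301b, r was 0.81 (permutation p = 1e-05, which is the lower limit with 100000 resamples; 1e-04 adjusted) and rho 0.62 (permutation p = 0.000380) over 30 libraries, and r was 0.65 (permutation p = 0.000190; 0.00095 adjusted) without Moderate replicate 5. It was 0.58 without the 2 libraries farthest from the median of miR-301a. Within diets r was 0.68 in High and 0.63 in the 14 other Moderate libraries, and within depth groups 0.83 under 12 M reads (0.64 without Moderate replicate 5) and 0.89 in the deeper ones. These 2 mature miRNAs are nearly identical in sequence. All 150 values of the members were whole reads within 0.02 of a read, so no read was divided between them as a fraction, but how the authors placed a read that matches both was not given in the sources used here. A part of read placement in this relation was not tested.

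For miR-301b and miR-454, r was 0.73 over 30 libraries (permutation p = 0.000190; 0.00055 adjusted) with rho 0.53 (permutation p = 0.00321), and r was 0.46 (permutation p = 0.0127; 0.0319 adjusted) without Moderate replicate 5. Without the 2 libraries farthest from the median of miR-301b, r was 0.47. Within diets r was 0.66 in High and 0.25 in the 14 other Moderate libraries, and it was 0.74 under 12 M reads (0.42 without Moderate replicate 5) and 0.59 in the deeper ones. For miR-301a and miR-130b, r was 0.36 (permutation p = 0.0421, 0.0702 adjusted) and, without Moderate replicate 5, 0.44 (permutation p = 0.0171, 0.0342 adjusted). The rho of this pair was 0.44 over 30 libraries (permutation p = 0.0156, 0.0261 adjusted). Without Moderate replicate 5 it was 0.42 (permutation p = 0.0235, 0.0470 adjusted). miR-130b and miR-454 had an r of 0.32 (permutation p = 0.0806; 0.115 adjusted).

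miR-130a, the most abundant member, showed no positive relation that passed. Its r over 30 libraries was 0.10 with miR-130b (permutation p = 0.612), -0.27 with miR-301a (permutation p = 0.147) and -0.17 with miR-301b (permutation p = 0.373). With miR-454 it was negative, at -0.46 (permutation p = 0.0122; 0.0244 adjusted) with a rho of -0.46 (permutation p = 0.0123). Leaving out Moderate replicate 5 gave an r of -0.41 (permutation p = 0.0280; 0.0467 adjusted), while rho was -0.40 and did not pass (permutation p = 0.0319; 0.0532 adjusted). The r was -0.26 in those 29 libraries without the 2 farthest from the median of miR-130a and -0.18 in them with library totals as the scaling. The inverse relation with miR-454 was thus weaker without those libraries and with that scaling, and the cause was not tested. Within diets it was -0.37 in High and -0.47 in Moderate libraries, and within depth groups -0.54 under 12 M reads and -0.38 in the deeper ones.

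**Figure D4:**
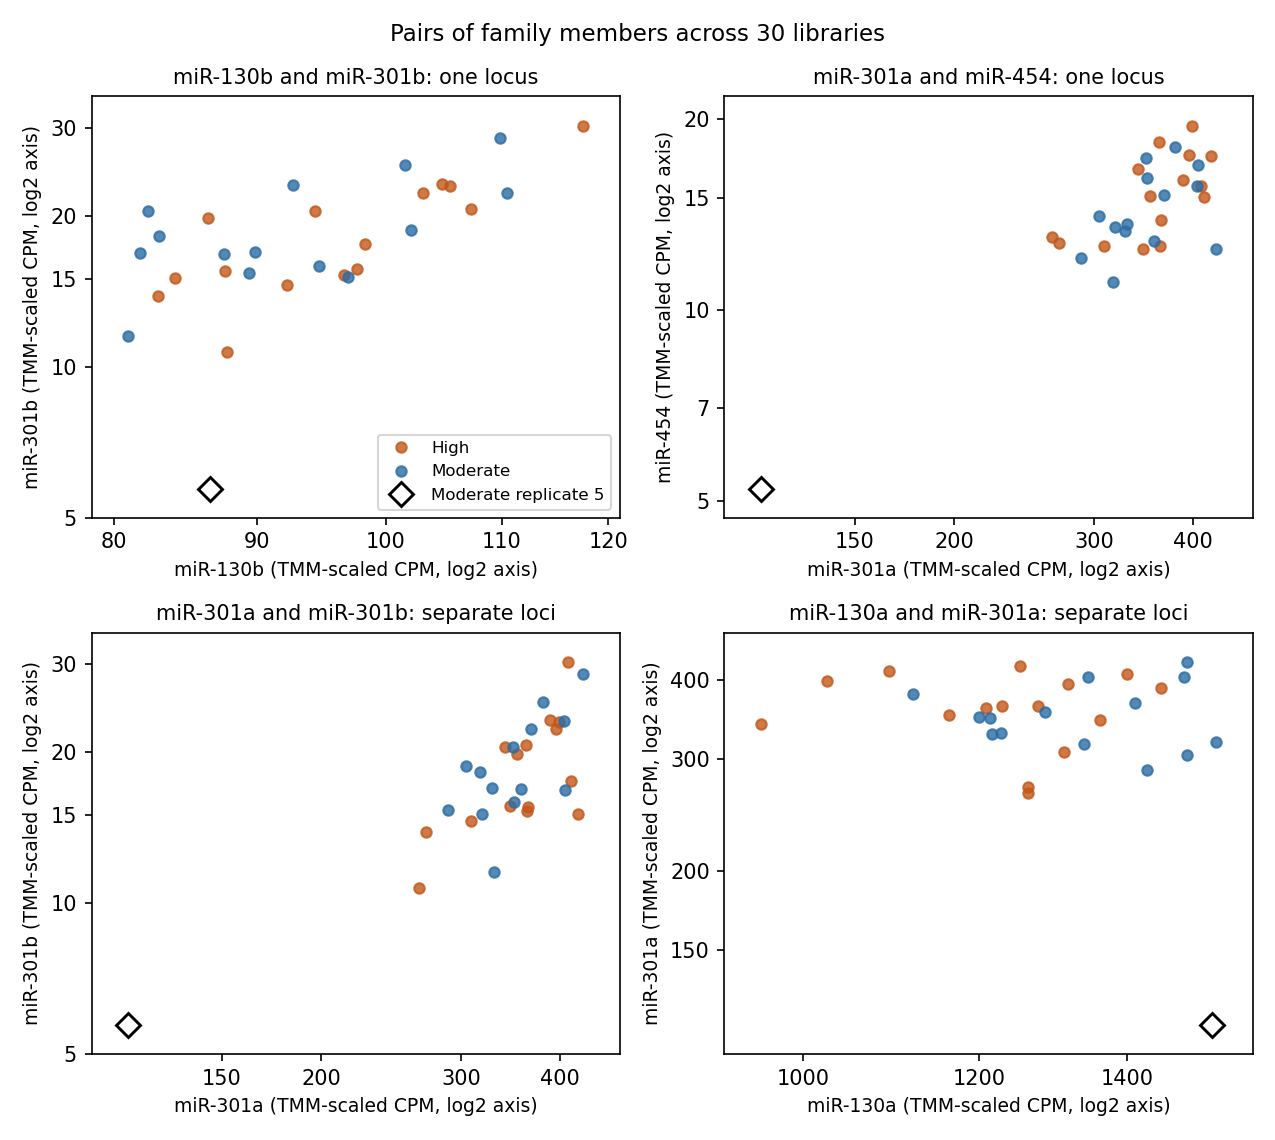
Level of a pair of members in each of 30 libraries (both axes in TMM-scaled CPM, log2 spacing), for 2 pairs of the same locus (top) and 2 pairs of separate loci (bottom); orange is High, blue is Moderate and the open diamond is Moderate replicate 5. Without that library, r was 0.69 for miR-130b and miR-301b, 0.56 for miR-301a and miR-454, 0.65 for miR-301a and miR-301b and -0.07 for miR-130a and miR-301a.

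The tested miRNA most like a member in its pattern was another member for 2 of the 5, miR-130b and miR-301b, which were closest to each other. The likeness is Spearman's rho over 30 libraries, which share depth and scaling between miRNAs, and is given as a description. For miR-130b, miR-301b had the highest rho of the 386 other tested miRNAs (0.64), and for miR-301b, miR-130b did. miR-16b (0.61), of the miR-15/16 family that targets cell cycle genes, and let-7g (0.44), of a family linked to differentiation, came next for miR-130b. miR-301a (0.62) and miR-95 (0.55) came next for miR-301b.

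For miR-301a the closest were miR-30d (0.64), miR-301b (0.62) and miR-6119-5p (0.61). For miR-454 they were miR-6119-5p (0.58), miR-301a (0.56) and miR-301b (0.53). The median rho over all 386 others was 0.04 for miR-130b, 0.05 for miR-301a, 0.05 for miR-301b and 0.04 for miR-454. The pattern of miR-130a was closest to that of miR-143 (0.66), an miRNA abundant in smooth muscle, then miR-181d (0.63) and miR-2299-5p (0.61). The other smooth muscle miRNA, miR-145, had a rho of 0.42 with miR-130a, while for the endothelial miR-126 rho was 0.09 (3p arm) and -0.05 (5p arm). The summed smooth muscle level was 83215 to 139866 TMM-scaled CPM in High and 85353 to 178449 in Moderate libraries. Its part in the level of miR-130a was not tested.

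miR-130b was higher in the deeply sequenced libraries. Depth fell into 2 ranges: 4 High and 2 Moderate libraries had at least 16.7 M reads, and the other 24 had up to 10.3 M reads. miR-130b stood at 92.2 to 118 TMM-scaled CPM in the 6 deeper libraries, a mean of 106 ± 8.49, and at 80.9 to 109.8 in the other 24, a mean of 91.7 ± 8.12. The log2 difference was 0.20 (permutation p = 0.00105, two-sided; 0.00525 adjusted over the 5 members). It was 0.18 within High and 0.23 within Moderate libraries, and 0.20 over both without Moderate replicate 5 (0.00760 adjusted).

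The median difference over all 387 tested miRNAs was 0.04, with quartiles of -0.04 and 0.10. The permutation test was run only for the 5 members and was added after seeing the values. The share of all tested miRNAs that would pass it is therefore not known. By this difference miR-301b ranked 11 and miR-130b 34 from the top of the 387. miR-301b, its neighbour in the genome, stood 0.33 higher on the log2 scale in the deeper libraries (0.206 adjusted), miR-130a 0.12 (0.206 adjusted), miR-454 0.12 (0.524 adjusted) and miR-301a 0.07 (0.628 adjusted). These differences, without Moderate replicate 5, were 0.26 for miR-301b, 0.13 for miR-130a, 0.06 for miR-454 and 0.0065 for miR-301a. Mean depth was 10.9 M reads in High and 9.61 M reads in Moderate libraries, and with log10 depth as a term in limma the log2 fold change of miR-130b, High minus Moderate, was 0.04 (adjusted p = 0.736). miR-130a stood at -0.14 in the same fit (adjusted p = 0.118).

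miR-19a, miR-19b, miR-148a, miR-148b and miR-152 carry seeds that overlap that of the family at an offset of a single base; miR-19a and miR-19b belong to the miR-17-92 cluster, which promotes cell growth, and the other 3 form a family known for repressing DNA methyltransferase genes. None of these 5 passed the test of diet, which 4.91% of all tested miRNAs did. Reads of miR-19b were partly divided into fractions. The log2 fold changes of the 5 lay between -0.07 for miR-152 and 0.10 for miR-148b, with a median of 0.09. When Moderate replicate 5 was left out, miR-19a turned to -0.07 and miR-19b to -0.05, and the median was -0.05. miR-148a, at 53048 ± 3979 TMM-scaled CPM in High and 51497 ± 4361 in Moderate libraries, was far more abundant than any member of the family.

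The miR-27 miRNAs, listed by number without regard to arm, gave 1 call of 3 tested, while 4.91% of all tested miRNAs were called. Like miR-130, miR-27a-3p and miR-27b repress PPARG in mammals. miR-27a-5p is the other arm and averaged 3.16 TMM-scaled CPM. miR-27b rose to 23806 ± 2111 TMM-scaled CPM in High libraries, against 20362 ± 2783 in Moderate libraries (log2 fold change 0.23, adjusted p = 0.0409 in limma). miR-27a-3p stood at 14674 ± 1572 in High and 12985 ± 1723 in Moderate libraries (0.18, adjusted p = 0.0820 in limma), and miR-27a-5p at 0.25 (adjusted p = 0.364). No miRNA at all was called with library totals, with no filter, with the diets of the titles, in the 12 libraries whose labels match or without High replicate 5, so this call is absent there. miR-130a and miR-27b had log2 fold changes of opposite sign, and their rho over the 30 libraries was -0.23.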

How the data were processed

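The authors deposited 1 table with 1030 miRNAs and 30 libraries. Per the submitters' processing notes, FastQC 0.11.8, cutadapt 2.6, R 3.4 and edgeR 3.5 were used; the aligner, reference and genome version were not given in the sources used here. Deposited values are a normalized signal, CPM on a TMM-scaled library size, as worked out from the values: whole reads within 0.02 of a read were recovered for 95.3% of the 18379 values above 0. These recovered reads gave depths, reads per member and the count tests, of which edgeR called 36 of 378 miRNAs and DESeq2 52.

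The main test was limma 3.58.1 (R 4.3.3) (trended prior variance) on log2(value + 0.5), over 387 miRNAs that reached 1 in 15 or more libraries, in place of the count test named for raw counts. Fold changes on this scale understate changes of low miRNAs. P-values were adjusted by Benjamini-Hochberg at a threshold of 0.05. Ratios, correlations and depth groups were tested by permutation with 100000 resamples. Alternatives used edgeR 4.0.16 and DESeq2 1.42.0. Fits were tested on simulated data. Counting error does not cover amplification, since reads carry no molecular identifiers.

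The members, the lists and the tests were chosen with earlier results of these data known. The tests of ratios and of depth were added after seeing the values. The miRNAs named are the 5 members, the 3 closest to each by Spearman's rho, and those of the related-seed, miR-27 and marker lists. Replicates were numbered by accession, so equal numbers pair nothing, and p-values measure the spread between these libraries, with each taken as a calf of its own. RefSeq positions were used only for which genes neighbour each other.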

Additional observations from a re-analysis of the deposited data

Results flagged for a closer look

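The libraries were divided by diet and by whether title and characteristic name the same diet, into sets of 6 or 9, which gave 20 sets over the 5 members. In 2 of these sets the extreme library stood far from its nearest neighbour relative to the range of the set, where chance gives about 1 in 20. miR-301a was at 114 TMM-scaled CPM in Moderate replicate 5, and the next of the 6 Moderate libraries with matching labels was at 317. miR-301b was at 30.3 TMM-scaled CPM in High replicate 6, and the next of the 6 High libraries with matching labels was at 22.2. High replicate 6 was one of the deeply sequenced libraries, at 18.8 M reads, and also held the highest miR-130b level, at 118. The part of depth in these values was not tested.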

How the results depend on the processing

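No member passed an adjusted p of 0.05 under any setting run, with each of the 30 libraries left out in turn included. The number of miRNAs past the threshold, 19 of 387, was 36 in edgeR, 52 in DESeq2, 3 in the libraries under 12 M reads, and 0 with no filter, with library totals, with the diet of the titles and in the 12 libraries whose labels name the same diet. With each library left out it lay between 0 (without High replicate 5) and 45 (without Moderate replicate 5), and was 9 to 12 without High replicate 1, 4, 8, 10, 13 or 14 or Moderate replicate 1, 2, 4, 6, 8 or 13. Settings added after seeing the data, all without Moderate replicate 5, gave 31 with library totals, 48 in edgeR, 60 in DESeq2, 31 under 12 M reads, 0 in the libraries with matching labels and 46 with upper-quartile scaling. Beside the count of 0, 104 miRNAs had an unadjusted p under 0.05 with no filter, 61 with library totals, 11 by the titles, 43 in the 12 libraries (69 without Moderate replicate 5) and 75 without High replicate 5.

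Direction turned for miR-130a with library totals (0.081) and for miR-301b without Moderate replicate 5, in limma (-0.040), edgeR (-0.017), DESeq2 (-0.018), under 12 M reads (-0.11) and with upper-quartile scaling (-0.012). The log2 ratio of miR-301a to miR-130b turned to -0.023 and that of miR-130b to miR-301b to 0.093 without that library; the cause was not tested. Leaving out each library, miR-130a lay between -0.15 and -0.10, miR-130b between 0.04 and 0.08, miR-301a between 0.03 and 0.17, miR-301b between -0.04 and 0.12 and miR-454 between 0.07 and 0.19. By the titles miR-130a was at -0.03 and miR-301b at 0.21. The 4 pairs with r above 0.5 were 3 or 4 after subtracting diet means, under 12 M reads and without Moderate replicate 5. Within High libraries the count was 5. The 1 other scaling used for correlations, library totals in the 29 libraries other than Moderate replicate 5, gave 5. The count was 6 in the 6 deeper libraries and 2 in the 14 other Moderate libraries. Depth limits miR-301b and miR-454 most, at 11 to 546 reads per library. No paired analysis was possible because replicate numbers follow accession order.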

Other observations

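miR-449a, an miRNA of multiciliated and meiotic male germ cells, ran against part of the family. Its level was 11.7 ± 3.30 TMM-scaled CPM in High and 11.9 ± 4.94 in Moderate libraries. Spearman's rho with miR-130b was -0.65 over the 30 libraries, the lowest of the 386 other tested miRNAs, and -0.83 in High and -0.56 in Moderate libraries. It was -0.64 in the 24 libraries under 12 M reads and -0.54 in the 6 deeper ones. With miR-301b it was -0.56 (place 5 from the lowest), with miR-301a -0.43, with miR-454 -0.29 and with miR-130a -0.24. For the other germ cell miRNAs, miR-34b and miR-34c had a rho of -0.04 and 0.05 with miR-130b and of -0.24 each with miR-301b. These are descriptions of the same 30 libraries, chosen after their values were seen, and no cause was tested.

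The neural miRNA miR-9-5p had a rho of -0.59 with miR-301b and 0.06 with miR-130a over the 30 libraries. With miR-301a its rho was -0.43, with miR-454 -0.40 and with miR-130b -0.35. miR-124a, at a mean of 3.55 TMM-scaled CPM, had a rho of -0.58 with miR-301a and 0.18 with miR-130a. With miR-454 its rho was -0.45, with miR-301b -0.37 and with miR-130b -0.18. For the neural miR-129-5p, rho was -0.31 with miR-301b, -0.16 with miR-301a and 0.04 with miR-454. For miR-129-3p it was -0.24, -0.0056 and 0.02. Of the other marker lists, none of 7 leukocyte, 3 red blood cell, 4 epithelial and 3 striated muscle miRNAs passed the test of diet in limma. None of 6 neural, 2 endothelial, 2 smooth muscle and 2 gonadal somatic miRNAs did either. The neural miR-124a and miR-124b had the same values, as did miR-129 and miR-129-5p. Of 3 male germ cell miRNAs, 2 rose (miR-34b and miR-34c), while 4.91% of all tested miRNAs passed. miR-449a had a log2 fold change of 0.02 (adjusted p = 0.949 in limma). No miRNA was called with library totals, with no filter, by the titles, in the 12 libraries with matching labels or without High replicate 5. Both calls are absent there. When Moderate replicate 5 was left out, leukocyte miR-146b (log2 fold change 1.09, adjusted p = 0.0358) and striated muscle miR-499 (0.41, adjusted p = 0.0127) also passed in limma.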
